A study of Mus musculus with 31 samples.

Results

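The comparison described here asks whether the response of lung miRNAs to cigarette smoke was the same early and late in the exposure. It used all 31 arrays of the series. For every miRNA the smoke-minus-control difference at 4 and 6 weeks was averaged (the early effect), the difference at 8 and 12 weeks was averaged (the late effect), and the early effect was subtracted from the late effect. The array carries 650 miRNAs, of which 611 are of mouse and 39 are viral. Of these, 273 passed the detection filter and were tested, 270 of mouse and 3 viral, and the other 341 mouse miRNAs were too dim in every group.

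The mice were female and of the inbred strain BALB/c, and total RNA came from the excised lung. Control mice breathed room air, and smoke-exposed mice breathed cigarette smoke, for 4, 6, 8 or 12 weeks. Each duration had its own controls. There were 4 arrays in each of the 8 groups except 12 weeks smoke, which had 3, so the early sets held 8 smoke and 8 control arrays and the late sets 7 smoke and 8 control arrays. Neither the age of the mice nor the amount of smoke is stated in the labels. Nor do they say whether each array is a separate animal, so the p-values cover the spread among these arrays alone, and that spread may be technical. RNA of whole tissue was measured, so fewer cells of a type and less miRNA per cell cannot be told apart.

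A miRNA is a short RNA that guides the silencing machinery to messenger RNAs, mostly through its seed, bases 2 to 8 from the 5′ end. miRNAs with one seed form a family with largely shared targets, and miRNAs cut from one transcript form a cluster. In the smoke-exposed lung, miRNAs of inflammatory signalling are found beside miRNAs of epithelial, vascular and smooth muscle cells.

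The mature sequences of the miRNAs that carry the result are given first, 5′ to 3′ with the seed in capitals, as RefSeq (GRCm38.p6) lists them. The 2 members of the AGCAGCA seed, shared with miR-15 and miR-16, that passed the test of late against early effect were these.
miR-195-5p: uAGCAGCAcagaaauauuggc
miR-497-5p: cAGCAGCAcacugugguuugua
The 2 called members of the ACCCGUA seed differ from each other at 1 of 22 bases, so part of their signal could come from the same molecules; this was not tested.
miR-99a-5p: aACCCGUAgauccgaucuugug
miR-100-5p: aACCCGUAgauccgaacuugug
The 3 called members of the ACAUUCA seed follow.
miR-181a-5p: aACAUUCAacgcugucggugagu
miR-181c-5p: aACAUUCAaccugucggugagu
miR-181d-5p: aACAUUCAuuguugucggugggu
A further set, with no shared seed, was higher in smoke arrays at 4 and 6 weeks. Its smoke-minus-control difference was lower on the mean of 8 and 12 weeks, though that of miR-31-5p was 0.52 at 12 weeks.
miR-674-5p: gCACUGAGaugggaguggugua
miR-22-5p: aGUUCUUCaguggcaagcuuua
miR-29a-3p: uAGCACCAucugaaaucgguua
miR-31-5p: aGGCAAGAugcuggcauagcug
The largest smoke responders did not pass the test, and the sequences of 3 of them are shown for comparison.
miR-146b-5p: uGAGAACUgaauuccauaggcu
miR-21-5p: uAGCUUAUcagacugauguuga
miR-132-3p: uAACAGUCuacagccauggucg

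All 12 epithelial and both endothelial marker miRNAs listed for lung tissue passed the detection filter. On the leading principal component of the 207 miRNAs above background on every array (47.5% of their variance), smoke arrays 2 and 3 of 4 weeks stood highest at 9.12 and 4.84, and control array 4 of 4 weeks stood lowest at -5.28. Next highest were control arrays 4 and 3 of 6 weeks (3.9 and 3.6), and next lowest smoke arrays 3 and 2 of 8 weeks (-4.3 and -3.8). Across those 207 miRNAs the loading on this component and the late-minus-early value correlated at r = -0.80; the same arrays enter both, so this is a description only. A slide holds both groups of every duration, apart from slide 4 without 12 weeks smoke. Smoke samples lay in line 1 of each slide, control samples in line 2, and each duration in a column of its own. A line effect and a column effect therefore cancel in the comparison, while an effect of single positions cannot be told apart from it.

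Under the scaling used here, the smoke effect was lower late than early in most of the tested miRNAs. The median late-minus-early value of the 273 tested miRNAs was -0.16 on the log2 scale, and 200 of them lay below 0. The median difference between smoke and control was 0.17 at 4 weeks, 0.01 at 6 weeks, -0.05 at 8 weeks and -0.08 at 12 weeks. This shift depended on the processing. Its median was -0.06 when arrays were scaled on all probes, -0.08 with quantile scaling and -0.37 without scaling. It was near 0 with a floor 4 times higher (-0.0027) or with no detection filter (0 over 650 miRNAs), and it turned to 0.46 with normexp background correction. The values below are therefore best read against the median of all tested miRNAs as well as against 0.

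With limma and Benjamini-Hochberg adjustment, 20 of the 273 miRNAs (7.33%) passed the threshold of an adjusted p of 0.05, and 85 had an unadjusted p under 0.05. The smoke effect fell in 19 of the 20 (6.96%) and rose in miR-219-5p. The 19 falls ranged from -0.47 in miR-100-5p to -0.22 in miR-27b-3p on the log2 scale; after subtraction of the overall median they ranged from -0.31 to -0.06. Just inside the threshold was miR-181a-5p with an adjusted p of 0.0440, and just outside was miR-28-5p with 0.0505. None of the 20 was called when arrays were scaled on all probes, by quantiles or not at all, after normexp correction or with the scanner's own sum per miRNA. None was called either with 6 weeks alone as the early time, against 81 calls, 16 of the 20 among them, with 4 weeks alone, nor without the arrays highest in miR-206-3p. Leaving out 1 array gave between 3 and 69 calls. The count was 3 without control array 4 of 4 weeks, smoke array 2 or 3 of 8 weeks, or smoke array 1 or 2 of 12 weeks, and 4 without control array 3 of 8 weeks or control array 3 or 4 of 12 weeks. It was 6 without smoke array 2 of 4 weeks, smoke array 2 of 6 weeks or control array 2 of 12 weeks, 7 without control array 2 of 6 weeks, 9 without control array 1 of 6 weeks, 11 without smoke array 4 of 6 weeks and 13 without control array 2 of 8 weeks. It was 38 without control array 3 of 6 weeks, 45 without control array 4 of 6 weeks or smoke array 1 of 4 weeks, 46 without smoke array 1 of 8 weeks, 61 without smoke array 4 of 4 weeks and 69 without smoke array 4 of 8 weeks. miR-195-5p, miR-674-5p and miR-181c-5p were called whichever single array was left out.

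**Figure D1:**
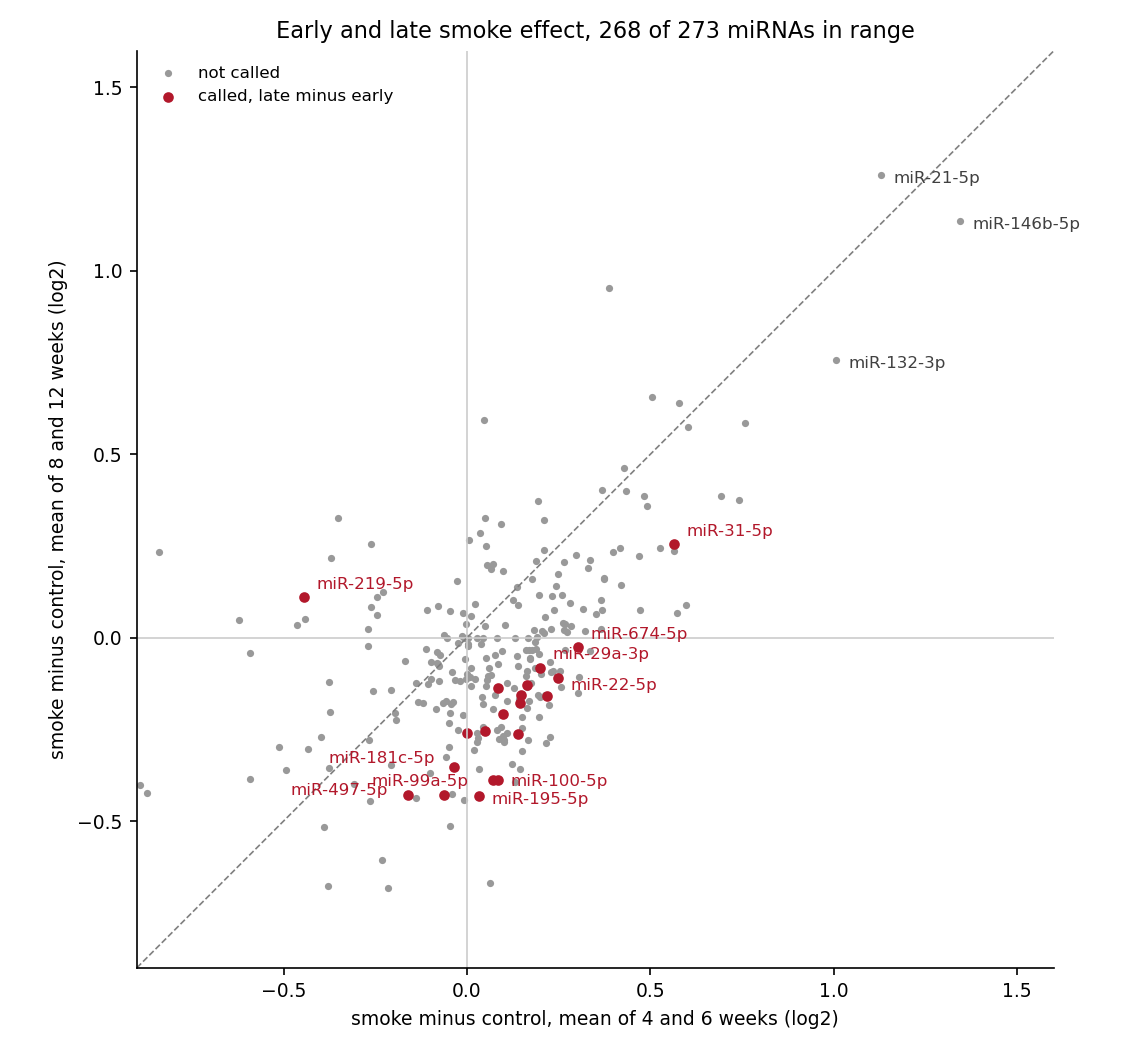
Each point is a miRNA, with its mean smoke-minus-control difference at 4 and 6 weeks on the x axis and at 8 and 12 weeks on the y axis, both in log2; the dashed line marks equal effects and red points are the 20 called miRNAs. 268 of the 273 tested miRNAs lie in the range drawn, and of the called ones only miR-219-5p lies above the line.

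The 19 falls took more than one form. In 9 of them the 95% interval of the early effect spanned 0 and that of the late effect lay below 0, the form of miR-195-5p, miR-99a-5p, miR-100-5p and the miR-181 members. In 5 the early effect lay above 0 and the late effect below 0, and in 3 the early effect lay above 0 and the late effect spanned 0, as in miR-674-5p and miR-29a-3p. miR-497-5p was below 0 early and further below 0 late, and miR-31-5p was above 0 both early and late. These intervals describe the estimates that make up the tested difference and are no separate tests.

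miR-195-5p, a member of the miR-15/16 seed family that represses cyclins and other cell cycle genes, had a smoke effect near 0 early and below 0 late. Early control arrays held log2 signals of 1.23 to 1.84 with a median of 1.47, and early smoke arrays 1.38 to 1.77 with a median of 1.53. Late control arrays lay between 1.62 and 1.78 (median 1.69), and late smoke arrays between 1.01 and 1.495 (median 1.25). The early sets overlapped, with control means of 1.38 at 4 weeks and 1.65 at 6 weeks. All 7 late smoke arrays lay below every late control array, as in 15 of the 273 tested miRNAs (5.49%). The same arrays gave the call, so the separation is a description only. The smoke effect was 0.03 ± 0.07 (SE) early and -0.43 ± 0.07 late, a late-minus-early difference of -0.46 ± 0.10 (limma adjusted p 0.0148). By week the effect was 0.16, -0.10, -0.40 and -0.47. The difference kept its sign under every scaling, from -0.67 without scaling to -0.32 with quantile scaling, where its adjusted p was 0.0794.

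miR-497-5p comes from the same transcript region. RefSeq places its mature sequence at chr11:70234730-70234751 and that of miR-195-5p at chr11:70235062-70235082 (GRCm38.p6, plus strand), 332 bases apart. No listed protein-coding or long non-coding gene encloses them, where genes with names beginning in Mir were not searched. Late control arrays held 1.30 to 1.44 (median 1.38) and late smoke arrays 0.86 to 1.06 (median 0.94), again with no overlap. Early control arrays held 1.01 to 1.31 (median 1.24) and early smoke arrays 0.72 to 1.16 (median 1.09), with 2 of 8 smoke arrays below every control array. The effect went from -0.16 ± 0.05 early to -0.43 ± 0.05 late, a difference of -0.27 ± 0.08 (limma adjusted p 0.0344); it was -0.07 with quantile scaling, above the median of all miRNAs there. Of the other 4 tested members of the seed, none was called: miR-15b-5p had -0.29, miR-16-5p -0.23, miR-322-5p -0.12 and miR-15a-5p 0.08.

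miR-99a-5p and miR-100-5p, which are known to target mTOR, lie on different chromosomes, at chr16:77598940-77598961 and chr9:41531437-41531458 (GRCm38.p6, plus strand). For miR-99a-5p, early control arrays held 0.20 to 0.88 (median 0.44) and early smoke arrays 0.37 to 0.96 (median 0.48). Late control arrays held 0.59 to 0.73 (median 0.70) and late smoke arrays 0.01 to 0.53 (median 0.28). For miR-100-5p the early sets ran from -1.49 to -0.92 (median -1.32) in control and from -1.37 to -0.72 (median -1.30) in smoke arrays. Its late sets ran from -1.20 to -0.99 (median -1.06) in control and from -1.73 to -1.25 (median -1.44) in smoke arrays. In both miRNAs the early sets overlapped and the late sets did not, with smoke below control in 7 of 7 arrays.

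The early effect of miR-99a-5p was 0.07 ± 0.09 and its late effect -0.39 ± 0.09, a difference of -0.46 ± 0.13 (limma adjusted p 0.0331). That of miR-100-5p was 0.09 ± 0.09 early and -0.39 ± 0.09 late, a difference of -0.47 ± 0.13 (limma adjusted p 0.0331). Both were higher in smoke arrays at 4 weeks by 0.29, and smoke array 2 of 4 weeks was the highest early array of each. Without smoke arrays 2 and 3 of 4 weeks the differences were -0.34 (adjusted p 0.0831) and -0.36 (adjusted p 0.0810). The third tested member of the seed, miR-99b-5p, had -0.37 ± 0.16 and did not pass (adjusted p 0.12). let-7c-5p, 732 bases from miR-99a-5p, had -0.39 and did not pass either (adjusted p 0.153).

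**Figure D2:**
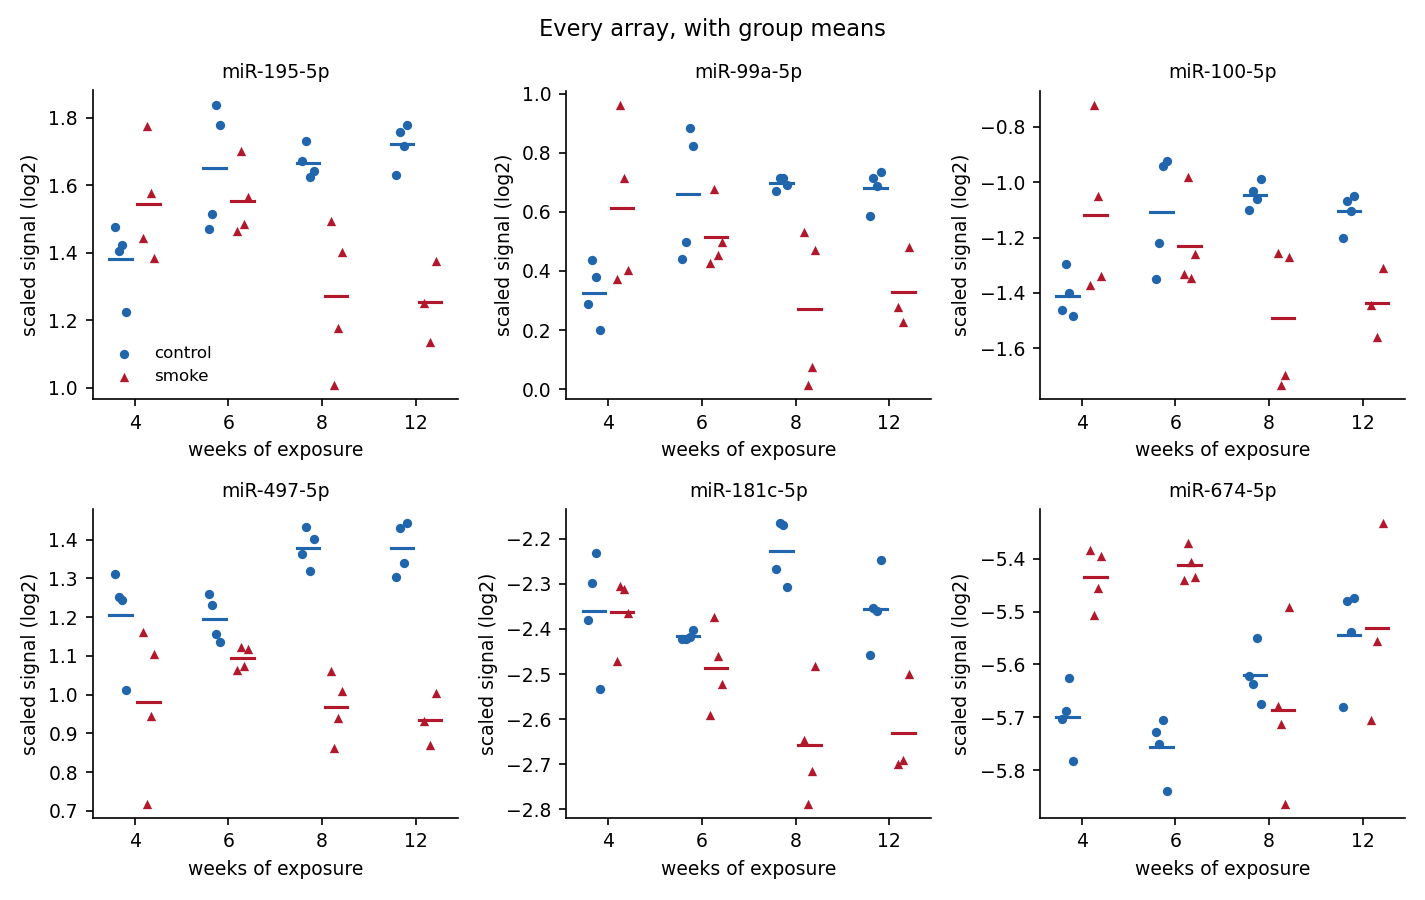
Every array's scaled log2 signal (y axis) by weeks of exposure (x axis, equally spaced categories) for 6 called miRNAs, with control arrays as blue circles, smoke arrays as red triangles and bars at the group means. For miR-195-5p, miR-99a-5p, miR-100-5p, miR-497-5p and miR-181c-5p all 7 smoke arrays of 8 and 12 weeks lie below every control array of those weeks, and for miR-674-5p all 8 smoke arrays of 4 and 6 weeks lie above the controls.

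The miR-181 family is best known for tuning antigen receptor signalling in lymphocytes. Of its 4 members 3 were called, all lower, against 6.96% called lower over all tested miRNAs. The sequence of miR-181c-5p is that of miR-181a-5p with 1 base left out. miR-181b-5p and miR-181d-5p differ at 1 of 23 bases compared. Part of the signal of these members could therefore come from the same molecules, which was not tested. miR-181c-5p was level early, with log2 signals of -2.53 to -2.23 (median -2.41) in control and -2.59 to -2.30 (median -2.42) in smoke arrays. Late it held -2.46 to -2.17 (median -2.29) in control and -2.79 to -2.48 (median -2.69) in smoke arrays, without overlap. Its effect was -0.04 ± 0.05 early and -0.35 ± 0.05 late, a difference of -0.32 ± 0.07 (limma adjusted p 0.0148). miR-181d-5p, 165 bases away (chr8:84178759-84178781 and chr8:84178924-84178945 for miR-181c-5p, minus strand), had an early effect of 0.00 and a late effect of -0.26, a difference of -0.26 ± 0.08 (limma adjusted p 0.0440). miR-181a-5p had -0.40 ± 0.12 (limma adjusted p 0.0440), from 0.14 early to -0.26 late. miR-181b-5p had -0.29 ± 0.12 and did not pass (adjusted p 0.110). All 4 members kept a negative value under each of the 4 scalings.

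Non-overlap late was not limited to the called miRNAs. Of the 273 tested, 15 (5.49%) had all late smoke arrays below every late control array, and none had all early smoke arrays below every early control array, a share of 0%. The 15 include 6 called ones: those of the array plot other than miR-674-5p, and miR-669a_v15.0. The other 9 include miR-125b-5p, miR-30a-5p, miR-199b-5p and miR-181a-1-3p. In the upward direction 17 miRNAs (6.23%) were separated early, with all smoke arrays above every control array, and 5 (1.83%) late. The 5 separated upward late were miR-34a-5p, miR-132-3p, miR-21-5p, miR-146b-5p and miR-135b-5p, and all 5 were separated early as well. Those separated early alone include miR-31-5p, miR-674-5p, miR-429-3p and, of the epithelial list, miR-182-5p and miR-183-5p. Separation was counted and was not itself tested between early and late.

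miR-674-5p, a dim miRNA of chr2:117185151-117185172 (plus strand), had a smoke effect early and one near 0 late. Early control arrays held -5.84 to -5.63 (median -5.72) and early smoke arrays -5.51 to -5.37 (median -5.42). Late control arrays held -5.68 to -5.47 (median -5.59) and late smoke arrays -5.86 to -5.33 (median -5.68). The early sets were apart and the late sets overlapped. The effect was 0.30 ± 0.05 early and -0.03 ± 0.05 late, a difference of -0.33 ± 0.07 (limma adjusted p 0.0148). Of its 4 probes, 3 lay at the floor of the scale (log2 -6.74) and gave 0. The opposite arm, miR-674-3p, had -0.41 ± 0.16 and did not pass (adjusted p 0.0901).

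miR-22-5p, the minor arm of the miR-22 hairpin, was higher in smoke arrays by 0.25 ± 0.06 early and had -0.11 ± 0.06 late (difference -0.36 ± 0.09, limma adjusted p 0.0266). The major arm, miR-22-3p, had -0.14 ± 0.09 and did not pass (adjusted p 0.278); the difference between the arms was not tested. miR-29a-3p, which represses collagens and other matrix genes, went from 0.20 ± 0.05 early to -0.08 ± 0.06 late (difference -0.28 ± 0.08, limma adjusted p 0.0331). Its control arrays rose by 0.27 from early to late (adjusted p 0.00757) while its smoke arrays changed by -0.01, and its value was 0.00 with quantile scaling. miR-29b-3p and miR-29c-3p of the same seed were not called.

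miR-31-5p, a miRNA of injured and proliferating epithelium, was higher in smoke arrays early and, by less, late. Early control arrays held -3.65 to -3.27 (median -3.42) and early smoke arrays -2.996 to -2.68 (median -2.92). Late control arrays held -3.53 to -2.96 (median -3.18) and late smoke arrays -3.26 to -2.75 (median -2.92). All 8 early smoke arrays lay above the early controls, and 4 of 7 late smoke arrays did so. The effect was 0.57 ± 0.06 early and 0.26 ± 0.07 late (difference -0.31 ± 0.09, limma adjusted p 0.0409). By week it was 0.59, 0.54, -0.01 and 0.52, lowest at 8 weeks. Single weeks were not tested against each other. From early to late the control arrays of miR-31-5p rose by 0.24 (limma adjusted p 0.0511), while its smoke arrays changed by -0.07 (limma adjusted p 0.501). With 12 weeks alone as the late time, none of the 20 called miRNAs passed, and with 8 weeks alone 14 of the 20 did. The other arm, miR-31-3p, had 0.43 early, 0.40 late and a difference of -0.03 ± 0.06 (adjusted p 0.720).

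**Figure D3:**
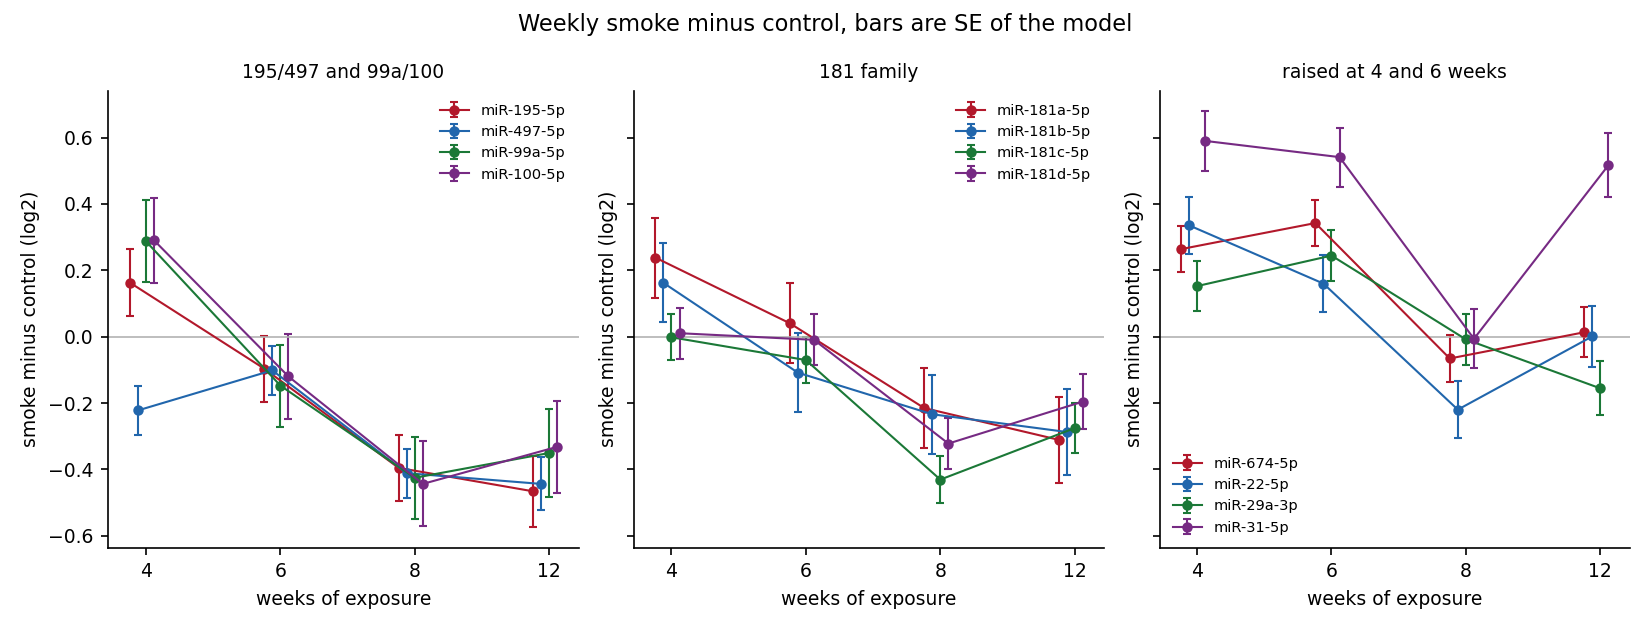
Smoke-minus-control difference in log2 (y axis) at each duration (x axis, equally spaced categories), with bars of 1 SE of the model. miR-195-5p, miR-497-5p, miR-99a-5p and miR-100-5p lie between -0.33 and -0.47 at 8 and 12 weeks, and miR-31-5p returns from -0.01 at 8 weeks to 0.52 at 12 weeks.

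The other 8 falls belong to no seed family with more than 1 called member. miR-872-3p (-0.38), miR-505-3p (-0.29) and miR-669a_v15.0 (-0.36) lay close to the floor and were above background on 27, 21 and 25 of 31 arrays. miR-669a_v15.0 belongs to the large miRNA cluster in an intron of Sfmbt2. miR-140-3p, processed from an intron of Wwp2, had -0.32. miR-152-3p, a miR-148 family member, had -0.30, miR-30d-5p -0.30, miR-350-3p -0.30 and miR-27b-3p -0.22. Their adjusted p-values in limma lay between 0.0331 and 0.0440. Among all 20 called miRNAs, 17 had every probe of one sign, and the other 3 (miR-674-5p, miR-872-3p and miR-505-3p) had probes at the floor. All 20 had the same sign within each of the 4 slides. The slides divide the arrays on which the 20 were called, so this is a description only. The median of all tested miRNAs was -0.12, -0.38, -0.20 and 0.07 on the slides, with 197, 208, 199 and 108 of 273 below 0. On slide 4 the late effect is that of 8 weeks alone.

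The 1 rise, miR-219-5p, a miRNA of the nervous system, rested on signals at the floor. Its medians were -6.28 in early control, -6.74 in early smoke, -6.71 in late control and -6.71 in late smoke arrays. It was above background on 15 of 31 arrays, 2 of them among the 8 early smoke arrays. The difference was 0.56 ± 0.17 (limma adjusted p 0.0440) and became 0.00 with a floor 4 times higher, as did those of miR-674-5p, miR-872-3p, miR-505-3p and miR-669a_v15.0.

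The miRNAs with the largest smoke effects did not pass the test of late against early, which does not show that their effects were equal. miR-135b-5p, which follows interleukin-1 signalling in the lung, was at the floor on all 16 control arrays, of which 3 had a probe above background. Early smoke arrays held -3.15 to -2.27 (median -2.44) and late smoke arrays -3.03 to -1.57 (median -2.04). The smoke arrays were at least 13.6-fold higher at 4 weeks, 19.4-fold at 6 weeks, 17.1-fold at 8 weeks and 26.4-fold at 12 weeks, taking the lowest signal above background for the controls. The late-minus-early difference was 0.36 ± 0.15 (95% interval 0.04 to 0.67, limma adjusted p 0.113). With a linear trend over weeks in place of early and late, it was called at 0.69 per 6 weeks (adjusted p 0.0196).

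miR-146b-5p, induced through NF-κB, held -0.88 to -0.52 in early control and 0.44 to 0.70 in early smoke arrays. Late it held -0.69 to -0.47 in control and 0.15 to 0.80 in smoke arrays, and the groups did not overlap early or late. Its effect was 1.34 early and 1.14 late, a difference of -0.21 ± 0.08 (95% interval -0.37 to -0.05, limma adjusted p 0.0763). By week it was 1.28, 1.41, 0.85 and 1.42, again lowest at 8 weeks. miR-21-5p, an abundant miRNA of inflammation and tissue repair, had 1.13 early and 1.26 late, a difference of 0.13 ± 0.09 (95% interval -0.06 to 0.32, adjusted p 0.323). Its sign turned to -0.08 without scaling. In smoke arrays alone miR-21-5p rose from early to late by 0.26 (limma adjusted p 0.0352), with 0.13 in control arrays (limma adjusted p 0.222). miR-132-3p, a target of CREB, had 1.01 early and 0.76 late, a difference of -0.25 ± 0.17 (95% interval -0.61 to 0.11, adjusted p 0.323), and its cluster partner miR-212-3p had -0.17 ± 0.24.

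**Figure D4:**
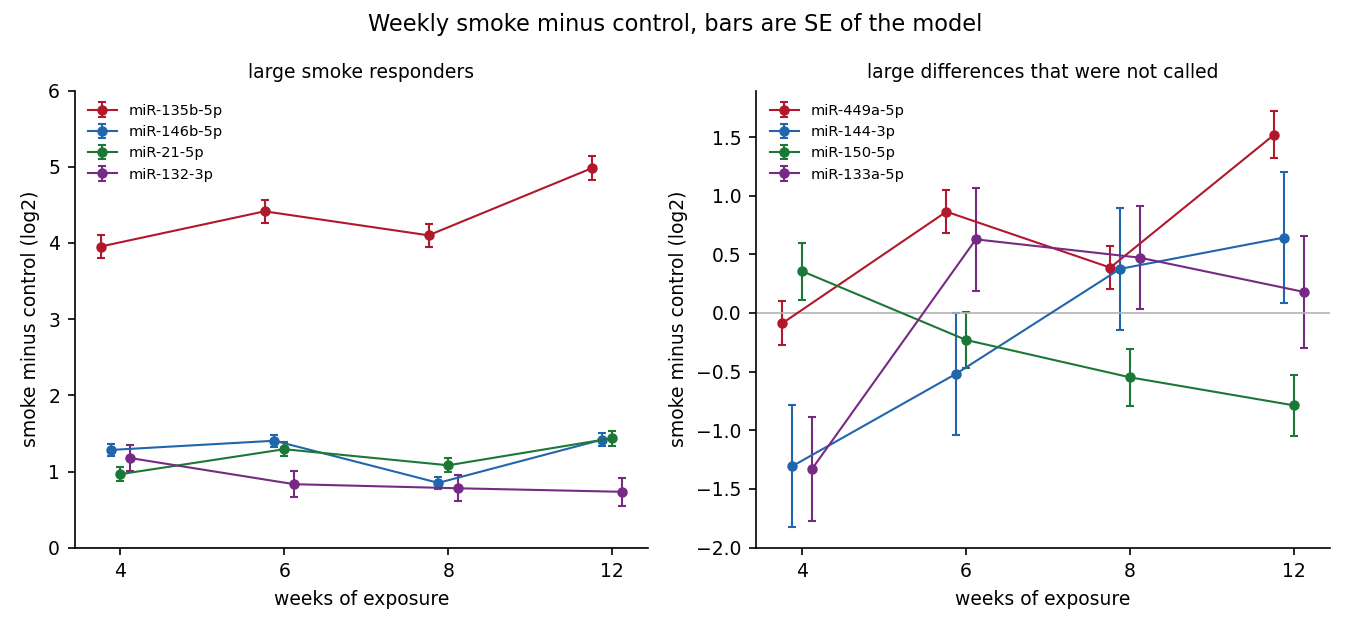
Smoke-minus-control difference in log2 (y axis) at each duration (x axis, equally spaced categories) with bars of 1 SE of the model, for 4 large smoke responders (left) and 4 miRNAs with large late-minus-early values that were not called (right). The points of miR-135b-5p are set by the floor at which its controls lie, so they are no fold changes. Its lower bounds are those in the text. miR-449a-5p goes from -0.09 at 4 weeks to 1.52 at 12 weeks. Between those weeks its control mean goes from -2.61 to -3.77 and its smoke mean from -2.70 to -2.25.

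Several miRNAs differed more between early and late than the called ones but varied more between arrays. The median SE of the difference was 0.15 over all tested miRNAs, and the called falls had SEs of 0.06 to 0.13. miR-144-3p, an erythroid miRNA, had the largest value, 1.42 ± 0.53 (limma adjusted p 0.0763), with weekly differences of -1.31, -0.52, 0.38 and 0.64. miR-449a-5p, found in multiciliated airway cells, had 0.56 ± 0.19 (limma adjusted p 0.0659). Of the other 4 tested members of the multiciliated list, miR-34b-5p had 0.52 and miR-34c-5p 0.35, while miR-34b-3p had -0.37 and miR-34c-3p -0.35, and none was called. The weekly differences of miR-449a-5p were -0.09, 0.86, 0.39 and 1.52, and it was called with a linear trend (1.03 per 6 weeks, adjusted p 0.00517). From early to late its control arrays changed by -0.47 (limma adjusted p 0.056) and its smoke arrays by 0.09 (limma adjusted p 0.66). miR-150-5p, which marks mature lymphocytes, had -0.73 ± 0.25 (limma adjusted p 0.0665), with weekly differences of 0.36, -0.23, -0.55 and -0.79.

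The difference was also divided into its arms, which share their arrays with it. Within smoke or control arrays alone, each duration lies in a slide column of its own, so a column effect does not cancel. A column effect or a difference in age cannot be told apart from duration there. From early to late, smoke arrays alone changed in 5 of 273 miRNAs (1.83%): miR-195-5p, miR-181c-5p, miR-335-5p and miR-434-3p fell and miR-21-5p rose, and 50 had an unadjusted p under 0.05. Control arrays alone changed in miR-29a-3p (0.366%), and 58 had an unadjusted p under 0.05. The median of all tested miRNAs was -0.07 in smoke arrays and 0.10 in control arrays. Of the 273, 180 lay below 0 in smoke arrays and 65 in control arrays. All 19 falls had a negative value in smoke and a positive one in control arrays, with medians of -0.17 and 0.18. The smoke value was the larger in 11. The falls were selected on the difference between the smoke and the control value, so these signs partly follow from the selection. For miR-195-5p the smoke arrays fell by 0.29 (adjusted p 0.0352), with 0.18 in control arrays (adjusted p 0.161). For miR-181c-5p the smoke arrays fell by 0.22 (adjusted p 0.0351), with 0.10 in control arrays (adjusted p 0.230). miR-335-5p, from an intron of Mest, had -0.35 in smoke arrays (adjusted p 0.0351), with a weekly difference of -0.57 at 8 weeks and 0.07 at 12 weeks.

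Lists of miRNAs by family, cluster and cell type were read against all tested miRNAs, of which 19 of 273 were called lower (6.96%), 200 of 273 lay below 0 and the median was -0.16. Besides miR-181 (3 of 4 members lower, median -0.30) and miR-15-16 (2 of 6 lower, median -0.25), 1 member fell in each of miR-30 (of 5), miR-29 (of 3), the miR-23-24-27 clusters (of 5), the Sfmbt2 cluster (of 12) and the inflammation-responsive list (miR-31-5p, of 9). By limma no member was called in let-7 (9 tested, 3 with an unadjusted p under 0.05), the miR-17 clusters (10, 0), the Dlk1-Dio3 region (5, 1), the p53 and DNA damage list (3, 0) or for hypoxia (1, 0). All 9 let-7 members had values below 0 with a median of -0.32; with scaling on all probes 8 did, and with quantile scaling 7. The Sfmbt2 cluster had 11 of 12 members below 0 and a median of -0.29.

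Among markers of cell types, limma called none. An unadjusted p under 0.05 was found in 3 of 12 tested epithelial, 1 of 2 endothelial, 2 of 8 leukocyte, 4 of 8 smooth muscle and mesenchymal, 1 of 5 multiciliated, 0 of 5 striated muscle and 1 of 2 erythroid members, and not in the liver miRNA, against 85 of 273 over all tested miRNAs. The leukocyte median was -0.35, with 6 of 8 below 0: miR-150-5p, miR-223-3p and miR-342-3p had -0.73, -0.51 and -0.51, and miR-142-3p and miR-142-5p had 0.49 and 0.45. In smooth muscle, 7 of 8 members lay below 0, with a median of -0.21 that was -0.09 with scaling on all probes; miR-145-5p had -0.52. The summed leukocyte level ran from 3.01 to 3.43 in early smoke and 3.06 to 3.86 in late smoke arrays, against 3.20 to 3.52 and 3.32 to 3.63 in the controls. The summed striated muscle level ran from -0.15 to 2.79 in early control and 0.60 to 1.04 in early smoke, and from 0.57 to 0.86 in late control and 0.48 to 2.87 in late smoke arrays. It was highest on control array 4 of 4 weeks and smoke array 3 of 8 weeks. The muscle markers miR-208a-3p and miR-499-5p were above background on no array and miR-206-3p on 4. Without the arrays highest in miR-206-3p no miRNA was called (49 with an unadjusted p under 0.05), and miR-195-5p had -0.43 (adjusted p 0.0848) there. The summed erythroid level lay between 5.72 and 6.52 in all sets, and the liver miRNA miR-122-5p was highest on smoke array 3 of 12 weeks at 1.57, with the floor as the median of each set. The part of these cell types in the falls was not tested.

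The 20 called miRNAs were set side by side under the 4 scalings. Their values moved together with the median of all miRNAs: miR-100-5p ran from -0.68 without scaling to -0.35 on all probes, and relative to the median from -0.33 to -0.29. miR-195-5p ran from -0.30 to -0.24 relative to the median and miR-99a-5p from -0.30 to -0.24. miR-27b-3p, miR-29a-3p and miR-497-5p rose above the median with quantile scaling, by 0.07, 0.08 and 0.01.

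**Figure D5:**
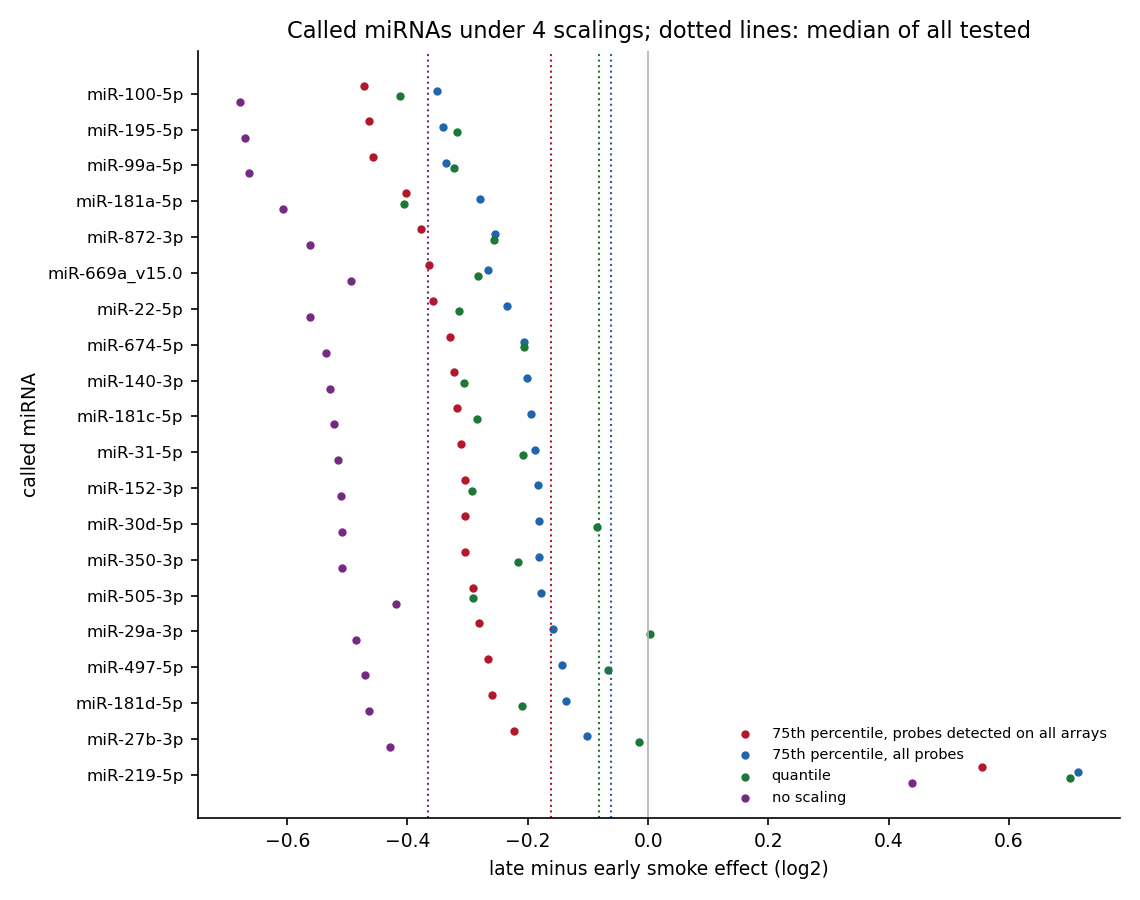
Late-minus-early smoke effect in log2 (x axis) of the 20 called miRNAs (y axis) under 4 scalings between arrays, with dotted lines at the median of all tested miRNAs under each. The medians are -0.16, -0.06, -0.08 and -0.37, and miR-29a-3p is the one fall that reaches 0.00, with quantile scaling.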

How the data were processed

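Each array has 13715 spots. Per the file headers, Feature Extraction 10.7.3.1 made the spot intensity values, subtracting background and removing spatial trends, with no step between arrays. The authors' own deposited log2 values, with an unstated normalization, served as an alternative; they correlated with the scaled scanner values at 0.981 to 0.989 per array and had array medians of 2.71 to 2.85.

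Control spots and 297 to 655 outlier spots per array were left out and spots of a probe averaged. A probe was detected on an array with 50% of its spots well above background. Each array was scaled to its 75th percentile of the 385 probes that all arrays detected, low values were raised to a floor (log2 -6.74), and the log2 of the brightest probe of a miRNA was kept. Tested miRNAs had a probe detected on 75% of a group's arrays. limma 3.58.1 in R 4.3.3 fitted 1 mean per group (23 residual degrees of freedom). The fit was checked on simulated data with independent noise for each miRNA and array. Variation shared by many miRNAs of an array was not simulated, so the check does not cover it. The number of arrays limits the precision. Names were matched to RefSeq (GRCm38.p6) for 497 of the 611 mouse miRNAs; names are the array's, and RefSeq lists miR-195-5p, miR-497-5p, miR-21-5p and miR-219-5p under miR-195a, 497a, 21a and 219a.

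Called miRNAs were named (at most 15 per direction), with list members that were called, or the one with the lowest p. Also named were 5 miRNAs whose smoke effect an earlier analysis gave, among them miR-212-3p, which is no large responder here. The third member of a seed, opposite arms and neighbours were added for context after their values were seen. The members and lists were chosen with earlier results of these data known. Alternatives were other scalings, background correction, filters, floors, probe summaries, slide or replicate number as a block, array weights, other definitions of early and late, and fewer arrays. Normexp used the median signal of each spot, since the mean signal was not used here, and array weights were fitted gene by gene.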

Additional observations from a re-analysis of the deposited data

Results flagged for a closer look

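The 20 called miRNAs are themselves differences between the early and the late effect, tested in 1 model. The log2 values were -0.47 for miR-100-5p, -0.46 for miR-195-5p, -0.46 for miR-99a-5p, -0.40 for miR-181a-5p, -0.38 for miR-872-3p, -0.36 for miR-669a_v15.0 and -0.36 for miR-22-5p. They were -0.33 for miR-674-5p, -0.32 for miR-140-3p, -0.32 for miR-181c-5p, -0.31 for miR-31-5p, -0.30 for miR-152-3p, -0.30 for miR-30d-5p and -0.30 for miR-350-3p. The remaining values were -0.29 for miR-505-3p, -0.28 for miR-29a-3p, -0.27 for miR-497-5p, -0.26 for miR-181d-5p, -0.22 for miR-27b-3p and 0.56 for miR-219-5p.

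In 12 of 254 groups of 4 arrays looked at over 38 named miRNAs, 1 array stood far from the other three; chance alone gives about 1 in 20. Smoke array 2 of 6 weeks was that array in 6 of the 12. Its log2 signals there were -6.63 for miR-133a-5p, -0.63 for miR-144-3p, -1.12 for miR-150-5p, -1.99 for miR-19a-3p, 3.66 for miR-29a-3p and -1.94 for miR-449a-5p. The others were miR-219-5p on smoke array 1 of 4 weeks (-6.59) and control array 2 of 8 weeks (-6.44), and miR-29a-3p on control array 4 of 4 weeks (2.80). The last 3 were miR-429-3p on control array 1 of 12 weeks (-0.93), miR-505-3p on smoke array 2 of 4 weeks (-6.08) and miR-872-3p on control array 1 of 4 weeks (-6.39).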

How the results depend on the processing

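The count of 20 was 0 with scaling on all probes (45 with an unadjusted p under 0.05), quantile scaling (51), no scaling (71), normexp (38), the scanner's sum (60), without the arrays highest in miR-206-3p (49) and with 6 weeks alone as early (36), all by limma. It was 5 with no detection filter, 6 with detection on every array and 10 in the deposited table. Without smoke arrays 2 and 3 of 4 weeks it was 9, with 12 weeks alone as late 2 and with a linear trend 3. With 4 weeks alone as early it was 81 and with array weights 96. Of the 20 themselves, 5 were among the calls in the deposited table and 6 among those without smoke arrays 2 and 3 of 4 weeks. With a linear trend 1 of the 20 was called, and with array weights 19. Without smoke arrays 2 and 3 and control array 4 of 4 weeks the count was 7. Without smoke array 3 of 12 weeks too it was 8 (both chosen after seeing the data). With the slide as a block it was 23. With the replicate block it was 7. Of 15 same-numbered pairs of smoke and control arrays, 7 correlated above 0.1. Correlations ran from -0.08 to 0.40 at 4, 6 and 8 weeks, where same-numbered arrays share a slide. They were 0.08, -0.17 and -0.22 at 12 weeks, where same-numbered arrays lie on different slides. These values cannot settle whether the numbers pair the samples. The 5 calls in smoke arrays became 0 with no scaling, normexp, no detection filter or 6 weeks alone as early, 2 without smoke arrays 2 and 3 of 4 weeks or with 12 weeks alone as late, and 3 with the scanner's sum, the slide block or the replicate block. They became 9 with a linear trend, 10 with the mean of probes, 12 with 8 weeks alone as late, 16 with quantile scaling, 18 with 4 weeks alone as early or array weights, and 25 in the deposited table. The 1 call in control arrays became 0 with no scaling, normexp or 6 weeks alone as early. It became 2 with the mean of probes, 3 with scaling on all probes, in the deposited table, without the arrays highest in miR-206-3p or with 8 weeks alone as late, and 4 with a higher floor and under both settings added after seeing the data. It became 7 with 12 weeks alone as late, 10 with a linear trend, 13 without smoke arrays 2 and 3 of 4 weeks, 18 with 4 weeks alone as early and 84 with array weights. Leaving out 1 array gave 3 to 69 calls, 0 to 28 in smoke arrays and 1 to 11 in control arrays.

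Normexp turned the late minus early sign of miR-872-3p (0.60), miR-669a_v15.0 (0.57), miR-22-5p (0.087), miR-674-5p (0.57), miR-31-5p (0.16), miR-152-3p (0.00073), miR-505-3p (0.55) and miR-181d-5p (0.31), where the median of all tested miRNAs was 0.46. Quantile scaling turned miR-29a-3p (0.0028). With a floor 4 times higher, 5 of the 20 lay at it and gave 0. The sign of the 20 held under every other setting run. The cause of these changes was not tested. Smaller sets of arrays or weeks give fewer values to each mean, and the part of this in the counts was not tested either. Signals near the floor limit miR-219-5p, miR-674-5p, miR-872-3p, miR-505-3p and miR-669a_v15.0.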

Other observations

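The imprinted Dlk1-Dio3 region, expressed in mesenchymal and developing tissue, had 5 tested members, with a median late-minus-early value of -0.11. miR-127-3p had -0.34 ± 0.13 (limma adjusted p 0.0803), and miR-434-3p, 1677 bases away in GRCm38.p6, had -0.20 ± 0.12 (adjusted p 0.220). miR-136-5p of the same region had 0.55 ± 0.37 (adjusted p 0.311). In the epithelial cluster that holds miR-200b, miR-200a and miR-429-3p, miR-200b-3p had -0.39 ± 0.15 (adjusted p 0.0828), miR-429-3p -0.21 ± 0.07 (adjusted p 0.0659) and miR-200a-3p 0.02 ± 0.14 (adjusted p 0.947). The weekly differences of miR-429-3p were 0.37, 0.37, 0.01 and 0.32, lowest at 8 weeks as for miR-31-5p and miR-146b-5p.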
